A study of Rattus norvegicus with 10 samples.

Results

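The hypoxia response genes described here are 10 genes chosen by name, Egln1, Egln3, Vegfa, Adm, Bnip3, Higd1a, P4ha1, P4ha2, Ero1a and Mxi1. Every probe set annotated to one of them was used, which gave 16 of the 31042 probe sets on the array that are not controls. All 16 were among the 23281 probe sets bright enough to be tested, and none lay at the lowest level on any array. They were measured with Affymetrix rat arrays in primary cultures of heart ventricle muscle cells from Lewis rats 0 to 3 days old. The labels name no gene alteration. Nonpulsed cultures (n = 3 arrays) had no electric stimulation, pulsed cultures (n = 4) were paced for 3 days at 1 Hz and 2 V/cm, and pulsed cultures with blebbistatin (n = 3) had the same pacing with 10 µmol/L of this myosin II inhibitor, which stops contraction. The 10 arrays came from 4 culture dates, numbered series 1 to 4 here, and duplicate experiments were pooled before hybridisation. All 3 groups were present in series 2 and 3, whereas series 1 lacked blebbistatin and series 4 lacked the nonpulsed group. No array held blebbistatin without pacing, so the drug's effect on contraction cannot be told apart from its other effects.

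When oxygen is plentiful, prolyl hydroxylases mark the alpha subunits of hypoxia-inducible factor (HIF) for destruction through the von Hippel-Lindau protein. When oxygen falls, the stabilised alpha subunit pairs with ARNT, binds a short element in target genes and raises their transcription. In heart muscle the targets include the hydroxylases themselves, secreted factors that act on blood vessels, proteins of mitochondria, and enzymes of the endoplasmic reticulum that build collagen and disulfide bonds. The labels give no oxygen level for these cultures, and none of the comparisons below varied oxygen.

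The element bound by HIF has the core ACGTG or GCGTG. Both were searched on both strands of the RefSeq window from 250 bases before to 50 bases after each gene start, in the GRCr8 assembly. Overlapping matches were each counted, so CACGTG counts as 1 match on each strand. A window was found for 9 of the 10 genes, with 2 windows for Vegfa, and Ero1a had none in the table. Of these 10 windows 6 held a match (60%), against 41.6% of all 33469 windows and 71.8% of the 4277 windows whose GC content lies within 5 percentage points of the members' median of 69.8%. The windows of P4ha2, Bnip3, Higd1a, P4ha1, Egln1 and Mxi1 held 5, 4, 3, 3, 2 and 1 matches. Those of Egln3, Adm and Vegfa held none, which says only that these letters are not in these windows. The 250 bases before the start are shown for 4 genes, because they set side by side genes whose windows hold the core and whose array values differ below. Capitals mark the matches, and each sequence is read 5′ to 3′ on the strand of its gene. P4ha1 and Egln1 show 2 and 1 matches, since a further match of each lies outside the bases shown.
Bnip3, chr1:203154963-203155212, minus strand: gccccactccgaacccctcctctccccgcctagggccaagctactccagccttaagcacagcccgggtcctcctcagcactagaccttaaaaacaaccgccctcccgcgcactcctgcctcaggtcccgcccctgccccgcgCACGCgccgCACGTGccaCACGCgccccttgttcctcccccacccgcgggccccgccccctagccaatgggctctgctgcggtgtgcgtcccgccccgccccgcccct
P4ha2, chr10:38743644-38743893, plus strand: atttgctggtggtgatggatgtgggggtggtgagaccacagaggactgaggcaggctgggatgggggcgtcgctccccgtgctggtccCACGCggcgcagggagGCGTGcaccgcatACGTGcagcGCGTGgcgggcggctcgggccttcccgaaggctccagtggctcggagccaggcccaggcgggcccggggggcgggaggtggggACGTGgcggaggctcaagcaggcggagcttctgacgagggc
P4ha1, chr20:27844796-27845045, plus strand: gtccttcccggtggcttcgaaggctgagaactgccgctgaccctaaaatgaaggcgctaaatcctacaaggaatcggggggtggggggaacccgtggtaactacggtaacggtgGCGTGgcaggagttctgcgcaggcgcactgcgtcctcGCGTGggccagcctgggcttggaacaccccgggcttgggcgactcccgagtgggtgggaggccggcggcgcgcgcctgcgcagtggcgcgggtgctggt
Egln1, chr19:69804682-69804931, minus strand: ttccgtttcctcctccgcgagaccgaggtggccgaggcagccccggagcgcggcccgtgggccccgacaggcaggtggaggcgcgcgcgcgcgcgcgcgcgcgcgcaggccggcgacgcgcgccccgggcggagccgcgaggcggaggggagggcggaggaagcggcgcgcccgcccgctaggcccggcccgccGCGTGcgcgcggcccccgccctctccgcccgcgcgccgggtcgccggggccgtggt

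The cultures expressed heart muscle genes, since 9 of 9 cardiomyocyte markers were bright enough to be tested. Their summed linear level was 50070 to 69150 in nonpulsed arrays. None lay at the lowest level on every array, but this held for every marker list and does not set them apart. Markers of fibroblasts (9 of 9) and of smooth muscle and pericytes (8 of 8) were also bright enough to be tested. In such mixed RNA, fewer cells of a type and less RNA per cell cannot be told apart. The arrays of series 1 stand apart, since 797 of 23281 probe sets (3.42%) were more than 2-fold higher and 269 more than 2-fold lower in its pulsed than in its nonpulsed array. In series 2 these counts were 86 and 51, and in series 3 they were 40 and 9. The main results are therefore given with and without it. Levels are deposited log2 values, changes are differences of log2 values estimated with limma with culture series as a block, and a call is a Benjamini-Hochberg adjusted p under 0.05 over all 23281 probe sets.

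Pulsed and nonpulsed cultures were compared to describe the response to pacing. The fitted change was above 0 for all 16 probe sets (background 61.1% of all probe sets), with a median of 0.34 against 0.04 over all probe sets tested, and it ranged from 0.10 for P4ha1 to 0.66 for Adm. The difference came largely from series 1. There the median was 1.05, 15 were higher in the pulsed array (background 62.8%), and 9 of the 16 probe sets were more than 2-fold higher (background 3.42%). In series 2 and 3 the medians were 0.18 and 0.05, 13 and 10 probe sets were higher (background 57.5% and 55.1%), and none was more than 2-fold higher. Without series 1 the fitted median was 0.09, and without series 3 it was 0.58. For 3 probe sets, the brighter one of Egln1, that of Bnip3 and 1372093_at of Mxi1, every pulsed array was above every nonpulsed one (background 6.17%), and for none was the reverse true (background 1.16%). Of the 16, 7 were higher in every series with both groups (background 24.1%). No probe set of these genes was called (background 0%, since limma called 0 of 23281), the smallest adjusted p being 0.485 for Adm, and 3 had an unadjusted p under 0.05 (background 9.08%).

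**Figure D1:**
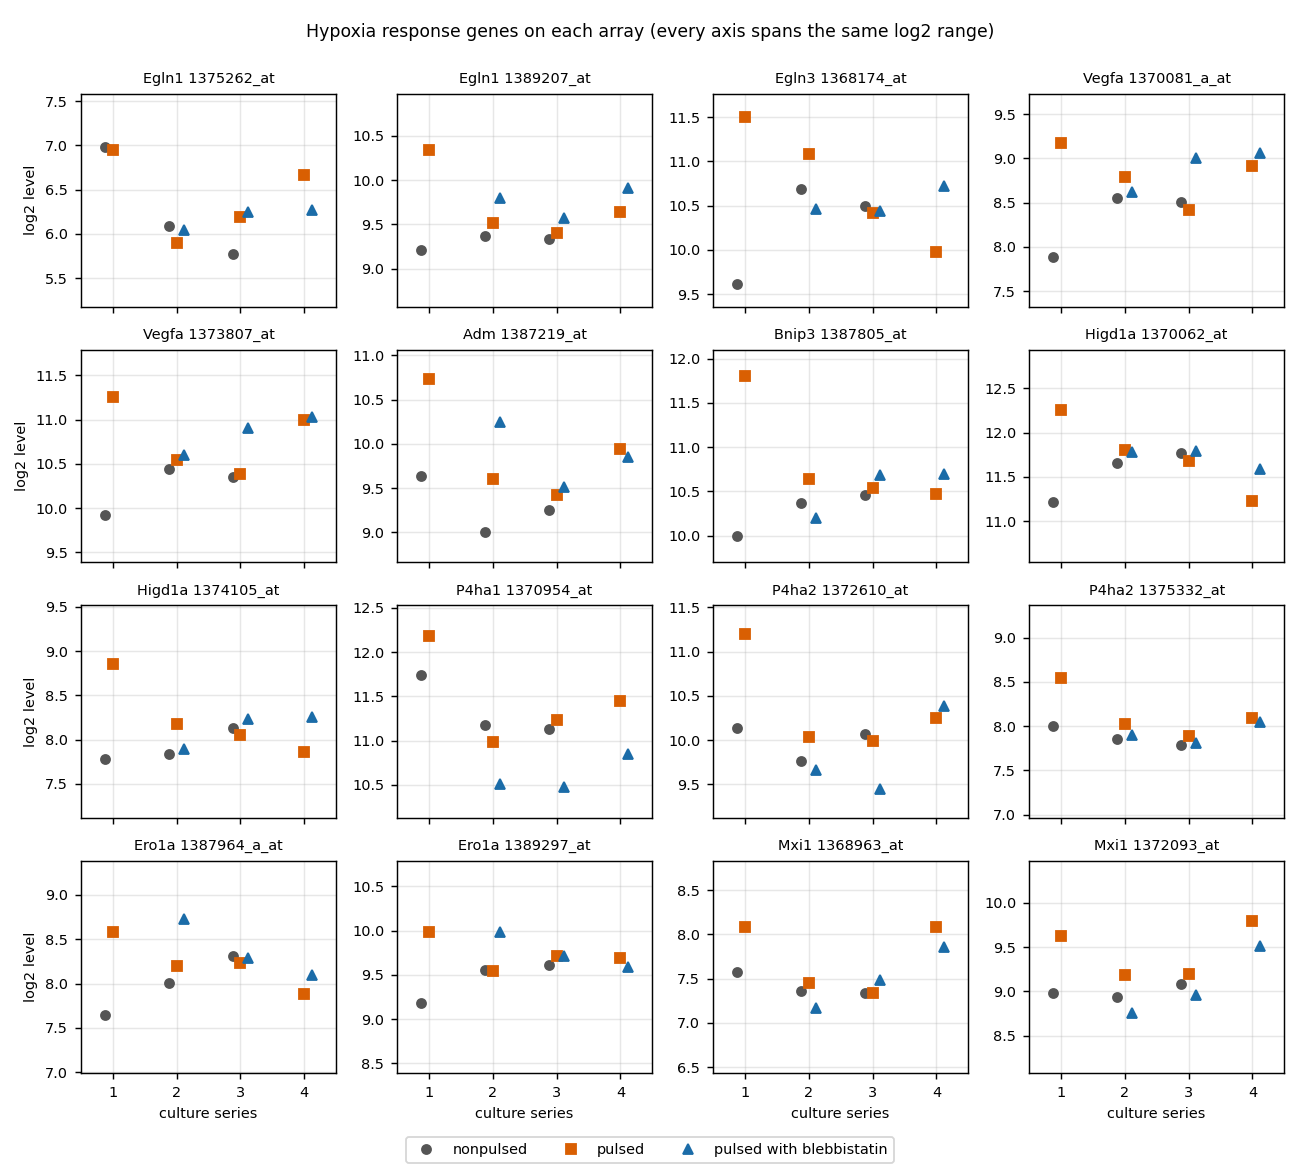
Deposited log2 level of each of the 16 probe sets (1 panel each, all axes spanning the same log2 range) on the 10 arrays, by culture series, with nonpulsed arrays as circles, pulsed arrays as squares and pulsed arrays with blebbistatin as triangles. The pulsed array of series 1 is the highest pulsed array in 14 of 16 panels, and P4ha1 is lower with blebbistatin in series 2, 3 and 4.

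The arrays of series 1 often lay at the edge of their group. The pulsed array of series 1 was the highest of the 4 pulsed arrays for 14 of 16 probe sets (background 34.1%), the exceptions being the 2 probe sets of Mxi1. The nonpulsed array of series 1 was the lowest of the 3 nonpulsed arrays for 9 of 16 (background 36.9%) and the highest for 6 (background 39.5%). These 6 were the dimmer probe set of Egln1, Adm, P4ha1, both of P4ha2 and 1368963_at of Mxi1. For 9 probe sets both held (background 8.25%), namely those of Egln3, Vegfa, Bnip3, Higd1a and Ero1a and the brighter one of Egln1. In that array pair the 9 cardiomyocyte markers were all higher with pacing, with a median difference of 0.80, and their summed linear level was 50070 in the nonpulsed and 78380 in the pulsed array. Over the groups this sum ranged from 50070 to 69150 in nonpulsed, from 69360 to 81310 in pulsed and from 72830 to 76970 in blebbistatin arrays. In series 1 the median difference was -0.59 for markers of smooth muscle and pericytes, with summed levels of 25340 and 18780, while fibroblast markers stood at 59670 and 59350. RNA quality was read from beta-actin, whose 3′ minus 5′ log2 difference was 0.45 in the nonpulsed and 0.60 in the pulsed array of series 1 and lay between 0.63 and 0.77 on the other arrays. The same difference for GAPDH was 0.17 and 0.11 in these arrays, within the range of 0.060 to 0.22 on the others. The part of cell makeup and RNA quality in the series 1 difference was not tested.

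**Figure D2:**
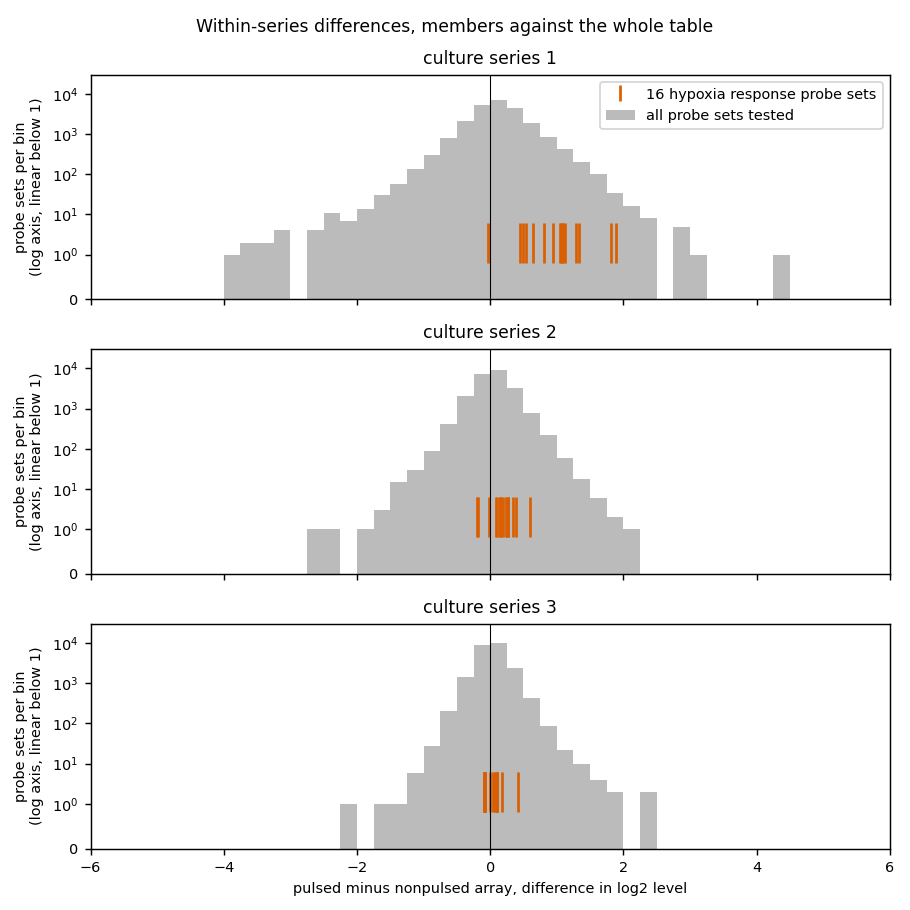
Number of tested probe sets (grey bars, log axis that is linear below 1) by the pulsed minus nonpulsed difference in log2 level, for culture series 1, 2 and 3, with the 16 hypoxia response probe sets as orange ticks. The ticks have a median of 1.05 in series 1 and of 0.18 and 0.05 in series 2 and 3.

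Among the oxygen sensors, Egln3, which encodes the prolyl hydroxylase PHD3, showed one of the widest spreads. Its log2 levels in series 1, 2 and 3 were 9.62, 10.69 and 10.50 in nonpulsed arrays and 11.50, 11.08 and 10.42 in pulsed arrays, with 9.98 in the pulsed array of series 4. The groups overlapped, because the pulsed arrays of series 3 and 4 lay below 2 nonpulsed arrays. The differences were 1.88, 0.40 and -0.08 in series 1, 2 and 3, and the fitted change was 0.58 (SE 0.39, limma, adjusted p = 0.672). Without series 1 it was -0.02. Its residual SD was larger than that of 99.28% of the probe sets tested.

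Egln1, which encodes PHD2, the main hydroxylase that holds HIF down in oxygenated cells, had 2 probe sets that did not move together (r = 0.33 over the 10 arrays). The brighter, 1389207_at, stood at 9.21, 9.37 and 9.33 in nonpulsed and at 10.34, 9.51, 9.40 and 9.64 in pulsed arrays of series 1, 2, 3 and 4. Its groups did not overlap, and each series with both arrays had the pulsed one higher, by 1.13, 0.14 and 0.07. The fitted change was 0.42 (SE 0.20, limma, adjusted p = 0.566), and 0.10 without series 1. The dimmer, 1375262_at, differed by -0.03, -0.19 and 0.42, with a fitted change of 0.13 (SE 0.16), and did not show the series 1 difference of the brighter probe set.

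The secreted factors came next. Vegfa, the main growth factor of blood vessel formation, was measured by 2 probe sets that moved together (r = 0.96). Probe set 1373807_at stood at 9.93, 10.44 and 10.35 in nonpulsed arrays and at 11.25, 10.54, 10.39 and 10.99 in pulsed arrays. The pulsed arrays of series 1, 2 and 4 were above every nonpulsed array and that of series 3 was not, so the groups overlapped. The differences within series 1, 2 and 3 were 1.33, 0.10 and 0.04. Its fitted change was 0.49 (SE 0.24, limma, adjusted p = 0.576), and 0.11 without series 1. The other, 1370081_a_at, had differences of 1.29, 0.24 and -0.09 and a fitted change of 0.46 (SE 0.25), or 0.08 without series 1.

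Adm encodes adrenomedullin, a peptide that widens blood vessels. Its log2 levels were 9.63, 8.999 and 9.26 in nonpulsed and 10.73, 9.60, 9.43 and 9.94 in pulsed arrays. The pulsed array was above its partner in all 3 series (differences of 1.097, 0.60 and 0.17), although the groups overlapped because the nonpulsed array of series 1 lay above the pulsed arrays of series 2 and 3. The fitted change of 0.66 (SE 0.21, 95% interval 0.17 to 1.15, unadjusted p = 0.0154) was the largest of the 16 and had an adjusted p of 0.485 in limma. Without series 1 it was 0.46, so Adm kept more of its change than Egln3 or Bnip3 did in that fit.

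Bnip3 and Higd1a act at mitochondria. BNIP3 sits in the outer membrane and helps mark mitochondria for removal by autophagy, and HIGD1A is a small inner membrane protein associated with the respiratory chain. Bnip3 stood at 9.99, 10.37 and 10.46 in nonpulsed and at 11.81, 10.64, 10.54 and 10.47 in pulsed arrays. The pulsed array of series 1 lay far above the other 3. The groups did not overlap, but only narrowly, with the lowest pulsed array at 10.47 and the highest nonpulsed array at 10.46. The differences were 1.81, 0.26 and 0.08, and the fitted change was 0.64 (SE 0.32, limma, adjusted p = 0.584), or 0.11 without series 1.

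Higd1a behaved alike on its 2 probe sets (r = 0.82). The brighter, 1370062_at, stood at 11.22, 11.65 and 11.77 in nonpulsed and at 12.26, 11.81, 11.68 and 11.23 in pulsed arrays. The pulsed array of series 4 was thus as low as the nonpulsed array of series 1, and the groups overlapped. The differences were 1.04, 0.15 and -0.09, with a fitted change of 0.31 (SE 0.21, limma, adjusted p = 0.671) that was -0.02 without series 1. The dimmer probe set differed by 1.08, 0.34 and -0.09.

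Of the enzymes of the endoplasmic reticulum, P4ha1 and P4ha2 encode alternative catalytic subunits of collagen prolyl 4-hydroxylase, and ERO1A passes electrons from protein disulfide isomerase to oxygen. P4ha1 had the smallest fitted change with pacing, 0.10 (SE 0.13, limma, adjusted p = 0.824), from differences of 0.44, -0.19 and 0.10. P4ha2 probe set 1372610_at differed by 1.06, 0.27 and -0.07, with a fitted change of 0.34 (SE 0.24). Its second probe set, 1375332_at, had differences of one sign, 0.54, 0.17 and 0.10, a fitted change of 0.26 (SE 0.11, unadjusted p = 0.0499, adjusted p = 0.550 in limma) and a residual SD below that of most probe sets. Without series 1 the fitted changes were -0.05 for P4ha1 and 0.0022 and 0.12 for P4ha2. Ero1a differed by 0.94, 0.20 and -0.08 on 1387964_a_at and by 0.80, -0.02 and 0.11 on 1389297_at. The fitted changes of Ero1a were 0.35 (SE 0.20) and 0.32 (SE 0.17), and 0.07 and 0.10 without series 1.

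Mxi1 encodes a partner of MAX that represses MYC target genes. Probe set 1372093_at stood at 8.98, 8.93 and 9.09 in nonpulsed and at 9.63, 9.19, 9.19 and 9.80 in pulsed arrays. Every pulsed array was above every nonpulsed one, and here the pulsed array of series 4, not that of series 1, was the highest. The differences were 0.64, 0.25 and 0.11, and the fitted change was 0.32 (SE 0.12, unadjusted p = 0.0298, adjusted p = 0.507 in limma) with 0.17 left without series 1. The other probe set, 1368963_at, differed by 0.50, 0.09 and 0.00 and had a fitted change of 0.21 (SE 0.13), or 0.07 without series 1.

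**Figure D3:**
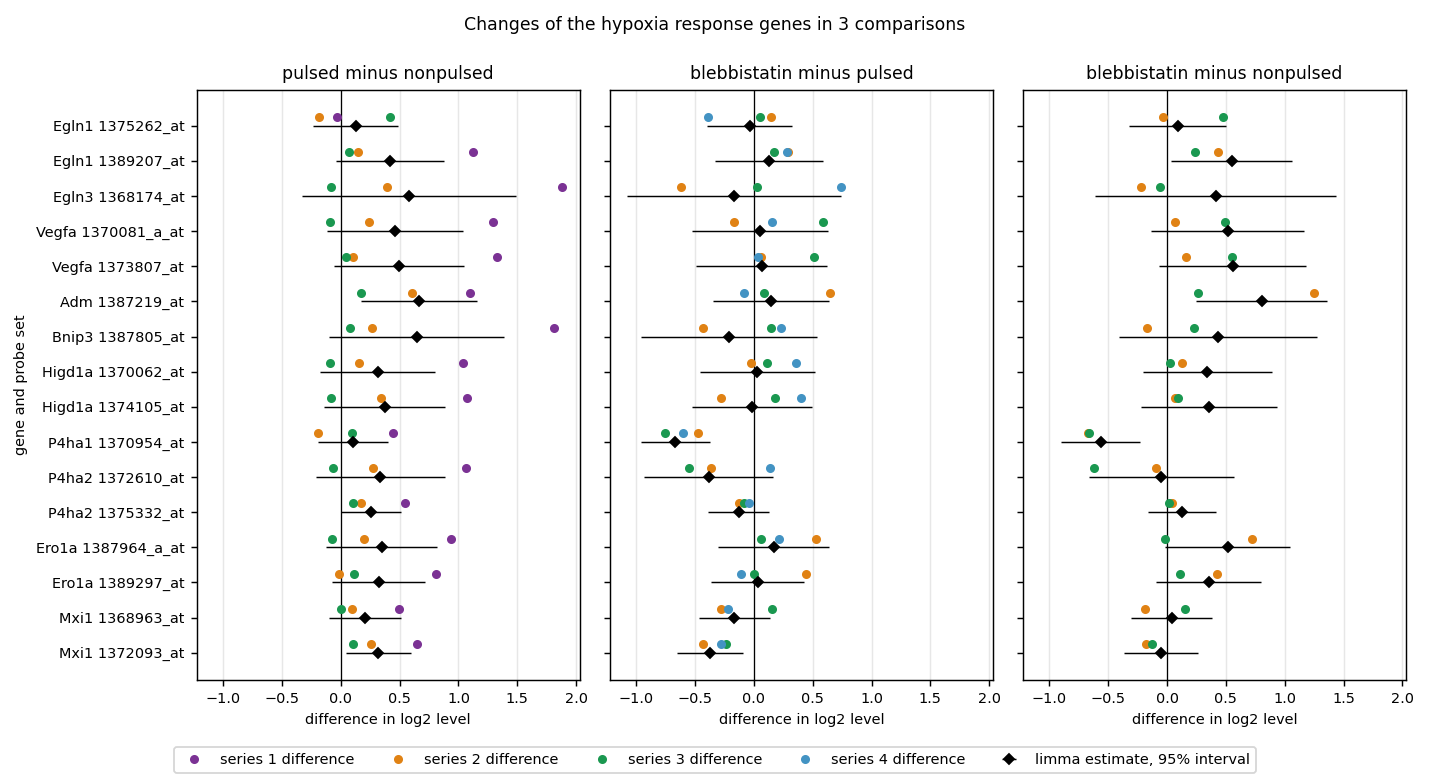
Change in log2 level of each probe set (rows) in the 3 comparisons (panels), with the limma estimate and its 95% interval as black diamonds and bars and the difference within each culture series as coloured points. With pacing the series 1 points lie rightmost in all rows but the upper Egln1 row, and with blebbistatin P4ha1 lies below 0 in every series.

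Pulsed cultures with and without blebbistatin were compared to describe pacing with contraction blocked. The hypoxia response genes showed no common direction. The fitted change was above 0 for 7 of 16 probe sets (background 55.5%), with a median of -0.03 against 0.02 over all probe sets, and the medians within series 2, 3 and 4 were -0.15, 0.08 and 0.09. No probe set was called (background 0.0129%, 3 of 23281), 2 had an unadjusted p under 0.05 (background 11.6%), and the median was 0.08 without series 1. This comparison uses the same pulsed arrays as the previous one, so their changes are not independent.

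P4ha1 was the member with the largest change. Its log2 levels were 10.51, 10.47 and 10.85 with blebbistatin in series 2, 3 and 4, against 10.99, 11.23 and 11.45 in the pulsed arrays of the same series and 12.19 in that of series 1. Every blebbistatin array was below every pulsed and every nonpulsed array (background 3.67% of probe sets lower without overlap than in pulsed, and 6.9% than in nonpulsed arrays). No member was higher without overlap than in pulsed arrays (background 6.18%). The differences from the pulsed partner were -0.48, -0.76 and -0.60, and the fitted change was -0.67 (SE 0.13, 95% interval -0.96 to -0.37), a level 1.59-fold lower. Its unadjusted p was 0.000953 and its adjusted p 0.175 in limma, so it did not pass, and its change was -0.61 without series 1.

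The paralogue P4ha2 followed only in part, with differences of -0.37, -0.55 and 0.13 on 1372610_at (fitted change -0.38, SE 0.24) and -0.13, -0.09 and -0.04 on 1375332_at (fitted change -0.13, SE 0.11). P4ha3, which encodes the third such subunit, differed by -0.02, -0.77 and -0.90 in series 2, 3 and 4 (fitted change -0.45, SE 0.24). Markers of other cells moved with P4ha1 here. All 8 smooth muscle and pericyte markers had a change below 0, with a median of -0.70, and their summed linear level ranged from 11990 to 14320 in blebbistatin arrays and from 18780 to 21070 in pulsed arrays. Of 9 fibroblast markers 7 were below 0, with a median of -0.27 and sums of 30880 to 51080 against 35790 to 59350. None of the 5 tested endothelial or 7 tested macrophage and leukocyte markers had a change above 0 (medians -0.30 and -0.23). No marker in these lists lay at the lowest level on every array, and their part in the P4ha1 difference was not tested.

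Mxi1 probe set 1372093_at was the other member with an unadjusted p under 0.05. It stood at 8.75, 8.96 and 9.51 with blebbistatin, below the pulsed partner by 0.44, 0.24 and 0.28 on the log2 scale, and the groups overlapped because series 4 was high in both. The fitted change was -0.37 (SE 0.12, unadjusted p = 0.0156, adjusted p = 0.332 in limma). Its second probe set had differences of -0.28, 0.15 and -0.22, so the direction in series 3 was not shared.

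Several other members differed in opposite ways between series. Bnip3 stood at 10.20, 10.69 and 10.70 with blebbistatin, with differences of -0.43, 0.15 and 0.23 from the pulsed partner and a fitted change of -0.21 (SE 0.32). Egln3 had differences of -0.62, 0.02 and 0.74 and a fitted change of -0.17 (SE 0.39). Higd1a followed the same order, with -0.03, 0.11 and 0.36 on its brighter probe set. Adm ran the other way, with 0.64, 0.09 and -0.08 and a fitted change of 0.14 (SE 0.21).

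The intervals of these members were wide, from -0.96 to 0.53 for Bnip3 and from -1.07 to 0.74 for Egln3 (95%). Egln1 probe set 1389207_at was higher with blebbistatin in each series, by 0.29, 0.17 and 0.28, with levels of 9.80, 9.57 and 9.92 and a fitted change of 0.13 (SE 0.20, adjusted p = 0.838 in limma). Vegfa probe set 1373807_at was also higher in each series, by 0.06, 0.51 and 0.04 (fitted change 0.06, SE 0.24), as was Ero1a probe set 1387964_a_at, by 0.53, 0.06 and 0.21 (fitted change 0.17, SE 0.20). In all, 3 probe sets were higher in every series (background 23.5%) and 3 were lower in every series (background 15.2%).

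Blebbistatin cultures and nonpulsed cultures were compared to describe pacing with blebbistatin against no electric stimulation. Only series 2 and 3 held both groups, and the fit reached series 1 and 4 through the pulsed arrays. The fitted change was above 0 for 13 of 16 probe sets (background 61%), with a median of 0.36 against 0.07 over all probe sets, but within series 2 and 3 the medians were only 0.05 and 0.10, and without series 1 the fitted median was 0.13. No member was called (background 0.472%, 110 of 23281), and 3 had an unadjusted p under 0.05 (background 22.4%). These were P4ha1, Adm and Egln1 probe set 1389207_at.

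P4ha1 was lower with blebbistatin by 0.67 in series 2 and by 0.66 in series 3 on the log2 scale (fitted change -0.56, SE 0.14, limma, adjusted p = 0.0978). Adm stood at 10.24, 9.52 and 9.86 with blebbistatin, above its nonpulsed partner by 1.25 and 0.26 (fitted change 0.81, SE 0.24, limma, adjusted p = 0.124), and was the 1 member more than 2-fold higher in a series (background 1.58% in series 2). Its groups overlapped through the nonpulsed array of series 1 at 9.63. For Egln1 1389207_at and for both probe sets of Vegfa every blebbistatin array lay above every nonpulsed array (background 17.6%). The fitted changes were 0.55 (SE 0.22, adjusted p = 0.203) for Egln1 and 0.51 and 0.56 (adjusted p = 0.311 and 0.264 in limma) for Vegfa. Without series 1, which held no blebbistatin array, they were 0.34 for Egln1 and 0.27 and 0.31 for Vegfa. Within series 2 and 3 the differences were 0.43 and 0.23 for Egln1, 0.07 and 0.49 for Vegfa 1370081_a_at, and 0.16 and 0.55 for Vegfa 1373807_at. Bnip3 and Egln3 differed by -0.17 and 0.23 and by -0.22 and -0.06 in series 2 and 3.

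The 10 genes varied together across the arrays to differing degrees. Over the 114 pairs of probe sets from different genes the median Pearson correlation over 10 arrays was 0.56 (lowest -0.33, highest 0.96), over the 8 arrays without series 1 it was 0.14, and over deviations from the mean of each culture series it was 0.68. Bnip3 and Egln1 1389207_at tracked the mean of the other genes most closely (r = 0.93 and 0.92 over 10 arrays), and Egln1 1375262_at, Ero1a 1387964_a_at and P4ha1 least (r = 0.34, 0.35 and 0.39). Over deviations from the series means these 5 values were 0.97 for Bnip3, 0.91 and -0.11 for the brighter and dimmer probe sets of Egln1, 0.75 for Ero1a 1387964_a_at and 0.16 for P4ha1. The median of 0.68 and the values for single genes include series 1. The residual SD of the fit, the spread left after group and culture series, was above the median of all probe sets for 14 of 16 and above the 90th percentile for 8, with a median of 0.32 against 0.16. These points share arrays and culture series, so the correlations are a description.

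The mean of the 16 standardised levels was 1.84 in the pulsed array of series 1 and lay between -0.78 and 0.33 on the other 9 arrays. The genes outside the list whose levels tracked this mean most closely over the 10 arrays were Afdn (r = 0.96), Cdh2, which encodes N-cadherin (0.96), Npepps (0.94), Narf (0.94) and Slc4a4, a sodium bicarbonate cotransporter gene (0.93). They were chosen for likeness to a mean that is highest in the series 1 pulsed array, so that array weighs on the choice.

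Other genes of the pathway were read from lists, each gene by its brightest probe set. As background for the counts below, 61.1% of all probe sets tested had a change above 0 with pacing. With blebbistatin this share was 55.5% against pulsed and 61% against nonpulsed cultures. No gene of the 9 lists was called with pacing (background 0%) or between blebbistatin and pulsed cultures (background 0.0129%). Between blebbistatin and nonpulsed cultures 1 gene, Lox, was called, and it was lower with blebbistatin (background 0.472% in either direction, 110 of 23281). Of the oxygen sensing list 9 of 10 annotated genes were tested, and with pacing 4 had a change above 0 (median -0.03). Hif1a, which encodes the alpha subunit HIF-1 alpha, had a change of -0.03 with pacing and of 0.07 with blebbistatin. Its differences with pacing were -0.25, 0.07 and 0.07. These are RNA levels, and the arrays do not measure the protein. Changes with pacing were 0.06 for Vhl, 0.11 for Egln2, the third prolyl hydroxylase, -0.07 for Arnt, -0.11 for Arnt2, 0.04 for Cited2, -0.14 for Os9 and -0.03 for Siah2. In series 1 the list had a median of -0.23, below 0, where the 10 genes had 1.05.

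Epas1, which encodes the alpha subunit HIF-2 alpha, differed from Hif1a. It was higher with blebbistatin than in the pulsed partner in each series, by 0.58, 0.46 and 0.56 (fitted change 0.58, SE 0.13, limma, adjusted p = 0.227), and had a change of 0.26 (SE 0.13) with pacing. Against nonpulsed cultures it was higher by 1.104 and 0.75 in series 2 and 3 (fitted change 0.84, SE 0.14, adjusted p = 0.0610 in limma). Arnt2 was lower with blebbistatin in each series, by 0.87, 1.43 and 0.30 on the log2 scale (fitted change -0.85, SE 0.19, adjusted p = 0.241 in limma). The remaining genes of the list had changes between blebbistatin and pulsed cultures of 0.15 for Vhl, 0.16 for Arnt, 0.05 for Egln2, -0.50 for Cited2, -0.03 for Os9 and -0.20 for Siah2.

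Glucose uptake and glycolysis targets had a pattern over the series like that of the 10 genes. With pacing 18 of 20 tested genes had a change above 0 (median 0.27), with medians of 0.72, 0.04 and 0.03 in series 1, 2 and 3. Over all probe sets tested the medians in these series were 0.10, 0.04 and 0.02. Aldoc, which encodes aldolase C, differed by 2.41, 0.22 and 0.08, and Slc2a1, the glucose transporter GLUT1 gene, by 1.12, 0.48 and 0.27. Among 33 tested genes of the other described targets 29 were above 0 (median 0.15), with medians of 0.49, 0.10 and 0.03. Ak4, a mitochondrial adenylate kinase gene, differed by 2.01, 0.44 and -0.07, whereas Angptl4 differed by -0.06, -0.09 and 1.23.

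With blebbistatin against pulsed cultures the same lists had medians of -0.03 (8 of 20 above 0) and -0.10 (11 of 33). Edn1, the endothelin 1 gene, had the largest change below 0 (-1.13, SE 0.22, adjusted p = 0.185 in limma), and Hmox1, heme oxygenase 1, the largest above 0 (0.96, SE 0.26, adjusted p = 0.304 in limma). Edn1 differed by -1.83, -1.05 and -0.65 in series 2, 3 and 4, and Hmox1 by 1.69, 1.02 and 0.04. Aldoc had -0.87 (SE 0.42) and Gbe1, the glycogen branching enzyme gene, 0.40 (SE 0.19). Lox, which crosslinks collagen, fell in blebbistatin against nonpulsed cultures (change -1.08, SE 0.14, adjusted p = 0.0379 in limma, lower in 2 of 2 series). The call held under 6 of 24 alternatives and was lost when any array or series was left out, with changes from -1.25 to -0.91 and adjusted p from 0.0241 to 0.324 over the alternatives. In the same comparison 1 of 8 smooth muscle and pericyte markers (median -0.85), 1 of 9 fibroblast markers (-0.24) and 0 of 7 macrophage and leukocyte markers (-0.42) had a change above 0, and their part in the Lox difference was not tested. Gbe1 and Slc2a1 had changes of 0.77 each in that comparison and did not pass.

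**Figure D4:**
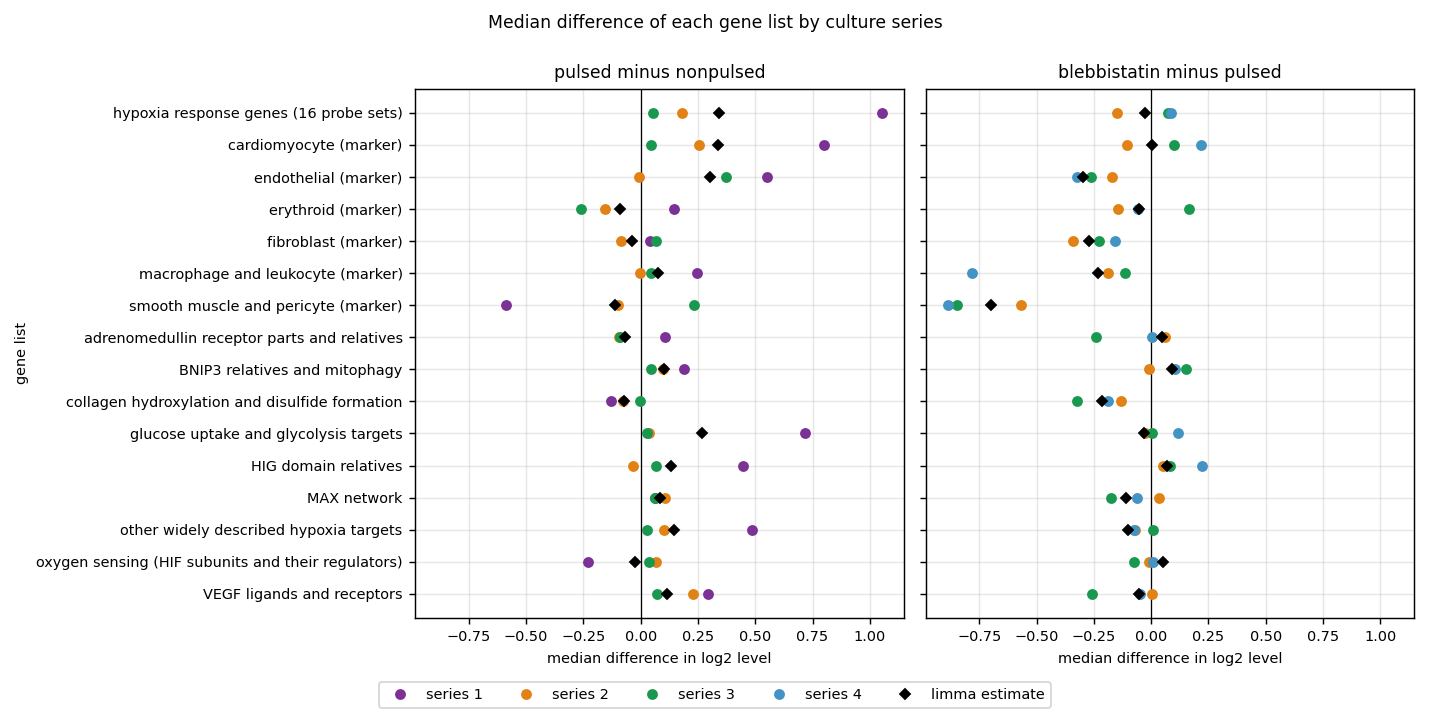
Median difference in log2 level of the 16 hypoxia response probe sets and of each gene list (rows), with pacing (left) and with blebbistatin against pulsed cultures (right), as the median limma estimate (black diamonds) and the median within each culture series (coloured points). With pacing the hypoxia response genes, the glycolysis targets and the cardiomyocyte markers have series 1 medians of 1.05, 0.72 and 0.80 and series 3 medians of 0.05, 0.03 and 0.05.

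Around the secreted factors, the VEGF list had a median of 0.12 with pacing (6 of 10 above 0). Angpt2, a ligand of the endothelial receptor TIE2, was higher with pacing in each series, by 1.40, 1.22 and 0.51 (fitted change 1.01, SE 0.17, limma, adjusted p = 0.480). Kdr, the main signalling receptor of VEGFA, differed by 1.87, 0.48 and 0.49 (fitted change 0.87, SE 0.27). Kdr is also one of the endothelial markers, of which 5 of 8 were tested, with medians of 0.55, -0.01 and 0.37 in series 1, 2 and 3. The summed linear level of the endothelial markers ranged from 643.1 to 777.3 in nonpulsed and from 704.6 to 1327 in pulsed arrays, and their part in these differences was not tested. Against pulsed cultures, blebbistatin had changes of -0.63 for Pgf (SE 0.30) and -0.39 for Vegfd (SE 0.22). Pgf differed by 0.25, -1.06 and -1.21 in series 2, 3 and 4, and Vegfd by -0.65, -0.60 and 0.33. Of the adrenomedullin list, Ramp2 and Ramp3, which encode partners of the receptor, had changes of -0.22 (SE 0.19) and -0.25 (SE 0.20) with pacing. Within series 1, 2 and 3 Ramp2 differed by -0.69, -0.28 and 0.18, and Ramp3 by 0.19, -0.85 and -0.28. Ramp3 and Ackr3 had changes of 0.62 and -0.74 with blebbistatin. Against nonpulsed cultures Calca had 0.46 (SE 0.28), with differences of -0.06 and 0.33 in series 2 and 3. Ackr3 had -0.65 (SE 0.24) there, with differences of -0.24 and -1.24.

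Among the relatives of Bnip3 and genes of mitophagy 9 of 11 had a change above 0 with pacing (median 0.10). Pink1, the kinase that flags damaged mitochondria, was higher in each series, by 1.06, 0.67 and 0.13 (fitted change 0.64, SE 0.16, adjusted p = 0.481 in limma), and had 0.80 (SE 0.19, adjusted p = 0.0872 in limma) in blebbistatin against nonpulsed cultures. Sqstm1, an autophagy receptor gene, had changes of 0.25 with pacing, 0.32 with blebbistatin and 0.56 between blebbistatin and nonpulsed cultures, and Bnip1 had 0.34 with blebbistatin. Of the relatives of Higd1a, Higd1b and Higd2a had 0.14 and 0.13 with pacing and 0.10 and 0.04 with blebbistatin, and 0.24 and 0.17 between blebbistatin and nonpulsed cultures.

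In the collagen hydroxylation and disulfide list 4 of 16 genes had a change above 0 with pacing (median -0.07) and 1 of 16 with blebbistatin (median -0.22). P4ha1 thus lay below this list's median in the blebbistatin comparison, with Pdia4, a disulfide isomerase gene, at -0.55 (SE 0.10, adjusted p = 0.137 in limma). Against nonpulsed cultures Pdia4 had -0.70 (SE 0.11, adjusted p = 0.0562 in limma) and P4ha3 -0.63 (SE 0.27). P3h3 and Prdx4 had -0.19 and -0.20 with pacing. In the MAX network 8 of 9 genes were above 0 with pacing (median 0.09), with 0.28 for Mga and 0.26 for Mycn, and 3 of 9 with blebbistatin (median -0.11). There Mycn had -0.87 (SE 0.25, adjusted p = 0.316 in limma), with differences of -0.63, -0.96 and -0.64. Myc had -0.18 (SE 0.40), with differences of 0.11, 0.36 and -1.52 in series 2, 3 and 4. Against nonpulsed cultures Mycn had -0.61 and Mga 0.30. In series 2 and 3 these differences were -0.37 and -1.35 for Mycn and 0.45 and -0.01 for Mga. With pacing Mycn differed by 1.02, 0.26 and -0.39 in series 1, 2 and 3.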

How the data were processed

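Trizol was used for total RNA, from which biotinylated cRNA was made for Affymetrix arrays, per the labels' protocols. The values used are the deposited log2 signals, 1 for each probe set on each array. The submitters' processing notes name PLIER and Affymetrix Expression Console 1.1. Neither PLIER's settings nor the log base are given in the sources used here, and a base of 2 was inferred, since it turns the lowest value of every array into 10 to 10.97 on a linear scale. Between 1988 and 2276 of the tabled probe sets per array lay at that level, and the array medians were 6.57 to 6.78. Symbols came from the platform annotation, and 0 needed an update through the GRCr8 gene table, which was used for names. Of the probe sets that are not controls, 20826 had 1 symbol, 436 several and 9780 none. Coordinates are given for the RefSeq promoter windows only.

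The 57 control probe sets and the lowest 25% by mean level (below 5.09) were left out. Every remaining probe set was tested with limma 3.58.1 in R 4.3.3 on all 10 arrays (lmFit, contrasts, eBayes, two-sided) with culture series as a fixed block. The number of arrays limits the precision. The labels do not say whether the duplicates behind an array were separate animals or litters. The p-values measure the spread between arrays that is left after group and culture series. The culture date in the titles pairs the arrays: deviations from the group means correlated at 0.35 to 0.63 in all 8 pairs of the same series (median 0.42). In 25 pairs from different series and groups they correlated at -0.58 to 0.50 (median -0.26), so the ranges overlapped. The design text speaks of 3 arrays per treatment, while the labels give 4 pulsed arrays, and all were used.

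The members, the gene lists, the tests and the alternatives were chosen with earlier results of these data known. Named genes were all members, all tested genes of the oxygen sensing list, the called genes or otherwise the 2 largest changes of each other list in each comparison, and the 5 closest profiles. Alternatives were no block, a random block (statmod 1.5.0), the groups compared alone, other scalings, filters, probe set rules and priors, and leaving out each array and series. Leaving out either array of series 1 or of series 4 gave the same fit as leaving out that series, so these alternatives are not distinct. The procedure was checked on simulated data with the same change in every series. That check does not cover changes that differ between series, as those of series 1 do here.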

Additional observations from a re-analysis of the deposited data

Results flagged for a closer look

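In the 1 group with 4 arrays, the pulsed one, each of the 16 probe sets was examined for an array far from the others. This was so for 1, Bnip3 (probe set 1387805_at), whose series 1 array at 11.81 lay apart from the other 3 at 10.47 to 10.64. The gap to the nearest array was 0.872 of the whole range, above Dixon's 95% critical value. By chance about 1 in 20 such groups passes it.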

How the results depend on the processing

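No probe set of the 10 genes was called under any of the 24 alternatives in any comparison, the smallest adjusted p being 0.284 with pacing, 0.0935 for blebbistatin against pulsed and 0.0753 for blebbistatin against nonpulsed cultures. The median change with pacing lay between 0.27 and 0.40, and between 0.09 and 0.59 when an array or series was left out. Against pulsed cultures the median was -0.16 to 0.08 when an array or series was left out. Against nonpulsed cultures it was 0.36, with 0.23 without the replicate block, 0.31 with a random block or quantile scaling, 0.27 with median centring, 0.078 with the 2 groups alone and 0.13 to 0.58 when an array or series was left out. Over the whole table, limma called 3 probe sets for blebbistatin against pulsed cultures, but 5 without the replicate block, 14 with a random block, 12 with the 2 groups alone, 0 with no filter, 6 with the lowest 50% left out and 0 to 48 when an array or series was left out. For blebbistatin against nonpulsed cultures it called 110, but 46 without the replicate block, 1212 with a random block, 2 with the 2 groups alone, 67 with quantile scaling, 1 with no filter, 70 with the lowest 50% left out, 63 with 1 probe set per gene, 56 with the mean of the probe sets of a gene, 211 with a trended robust prior and 0 to 69 when an array or series was left out. The cause of these shifts was not tested. Directions turned as follows. Against pulsed cultures, Adm had -0.051 and Higd1a 1370062_at -0.022 without the replicate block, and Egln3 0.050 and Higd1a 1374105_at 0.10 with the 2 groups alone. Against nonpulsed cultures, Egln1 1375262_at had -0.093 and Mxi1 1372093_at 0.072 without the replicate block, Mxi1 1372093_at 0.0080 with a random block, Egln3 -0.14 and Mxi1 1368963_at -0.018 with the 2 groups alone, and Mxi1 1368963_at -0.044 with quantile scaling and -0.043 with median centring. When an array or series was left out, changes with pacing were -0.058 to 0.27 for Egln1 1375262_at, -0.017 to 0.91 for Egln3, -0.020 to 0.52 for Higd1a 1370062_at and -0.051 to 0.24 for P4ha1. Against pulsed cultures they were -0.11 to 0.31 for Adm, -0.42 to 0.012 for Bnip3, -0.17 to 0.13 for Egln1 1375262_at, -0.58 to 0.13 for Egln3, -0.0042 to 0.34 for Ero1a 1387964_a_at, -0.14 to 0.11 for Ero1a 1389297_at, -0.12 to 0.15 for Higd1a 1370062_at, -0.21 to 0.14 for Higd1a 1374105_at, -0.17 to 0.23 for Vegfa 1370081_a_at and -0.12 to 0.20 for Vegfa 1373807_at. Against nonpulsed cultures they were -0.17 to 0.23 for Egln1 1375262_at, -0.097 to 0.19 for Mxi1 1368963_at, -0.15 to 0.040 for Mxi1 1372093_at and -0.26 to 0.33 for P4ha2 1372610_at. Averaging the probe sets of a gene gives no value for a single probe set.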
